A study of Homo sapiens with 18 samples.

Results

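The 9 genes described here are chemokines that Hodgkin cells are known for: CCL1, CCL5, CCL17, CCL20, CCL22, CXCL9, CXCL10, CXCL11 and CXCL16. They were chosen by symbol from the 18417 genes with a probe set of their own, and each of the 9 is read by exactly 1 probe set. Their expression was measured on 18 whole-transcript arrays of human lymphoma lines, in 6 groups of 3. L428 is a Hodgkin lymphoma line, and L428-PAX5 is a line derived from it in which the hormone antagonist mifepristone switches on PAX5, a factor that keeps B cells committed. Mifepristone at 0.25 nM alone, over 5 days, defines the groups L428+M and L428-PAX5+M. The groups L428+MAT and L428-PAX5+MAT began with 2 days of mifepristone. They then received 5-aza-dC, an inhibitor of DNA methylation, at 3 µM during 3 days, and trichostatin A (TSA), an inhibitor of histone deacetylases, at 640 nM in the final 24 hours. The untreated groups Raji and Namalwa are lines of Burkitt lymphoma. All L428 groups had mifepristone and the Burkitt lines had none, so that line and mifepristone cannot be told apart between them. L428-PAX5 was also grown with 25 mM HEPES, and L428-PAX5 without mifepristone was not analysed here, so PAX5, derived line and medium cannot be told apart in any comparison of L428-PAX5 with L428. How the derived line was selected, and whether replicates were separate cultures, is not given in the labels. The p-values therefore measure the spread between these samples, and it may be technical.

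Chemokines are small secreted proteins that draw cells along a gradient to the receptor they fit. In Hodgkin lymphoma the few tumour cells lie in a crowd of other leukocytes, and chemokines from the tumour cells are among the signals known to gather it. CCL17 and CCL22 bind CCR4 on helper and regulatory T cells, CCL1 binds CCR8, CCL5 binds receptors of T cells and monocytes, and CCL20 binds CCR6. CXCL9, CXCL10 and CXCL11 share the receptor CXCR3 and are textbook targets of interferon-gamma, while CXCL16 is made as a membrane protein that binds CXCR6 and can be shed.

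Values are log2 signals, on which 1 unit is a 2-fold step. They compare 1 gene between groups and not 1 gene with another. Differences are given as log2 difference ± standard error (SE) from limma, with 3 arrays per group, and a gene is called higher or lower where its Benjamini-Hochberg adjusted p over all 18417 genes is under 0.05. Replicate arrays correlated with r from 0.9645 to 0.9945 over probe sets, the lowest for L428-PAX5+MAT replicates 2 and 3. PAX5 had mean signals of 12.73 (L428-PAX5+M) and 12.79 (L428-PAX5+MAT) in the derived line, and of 7.49 (L428+M) and 7.17 (L428+MAT) in L428. The L428+M arrays were uneven for PAX5, with 8.64, 7.14 and 6.7 (SD 1.02). The B-cell receptor chain CD79A lay between 5.78 and 6.53 on every L428 array and between 11.64 and 12.45 in the Burkitt lines, and TNFRSF8, the Hodgkin antigen CD30, had means of 9.88 in L428+M, 7.69 in Raji and 7.53 in Namalwa. The mean over 8 T and NK cell markers stayed between 5.21 and 5.62 on every array and that over 8 myeloid markers between 5.04 and 5.37. Chemokine signals near or under the level of these markers were not told apart from background here, since no detection calls were used, and a fold against such a signal is a fitted value that can understate the change. This holds for CCL20, CXCL9 and CXCL11 in the L428 groups without drugs and for CXCL9 in L428-PAX5+MAT. In Burkitt lines it holds for CCL5 (Raji), CCL1 and CXCL10 (Namalwa), CCL20, CXCL9, CXCL11 and CXCL16. The level is a rough guide, since single T and NK cell markers had group means from 3.41 (KLRD1, L428-PAX5+M) to 7.39 (NKG7, L428+M). Signals such as CCL22 in L428+M (mean 6.51) lay within that range. In bulk RNA, more cells that express a gene and more RNA per cell cannot be told apart.

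Across the comparisons the 9 chemokines did not move as a block. The drugs in L428 raised 6 of 9 (CCL20, CCL22, CXCL9, CXCL10, CXCL11 and CXCL16), where 4.21% of all genes were called higher. None was called lower by limma, or lower at an unadjusted p under 0.05, and 0.635% of all genes were. The same drugs in L428-PAX5 raised 3 (CCL20, CXCL10 and CXCL11), against 14.2% of all genes, and lowered 2 (CCL1 and CCL17), against 19.4%. The median log2 difference over the 9 was 1.28 in L428 and 0.09 in L428-PAX5, and over all genes it was -0.04 in both. The test of the difference between the drug effects called 6 of the 9, CCL20 as larger in L428-PAX5 (5.64% of all genes were called in that direction) and CCL1, CCL17, CCL22, CXCL9 and CXCL16 as smaller or lower there (10.6%).

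**Figure D1:**
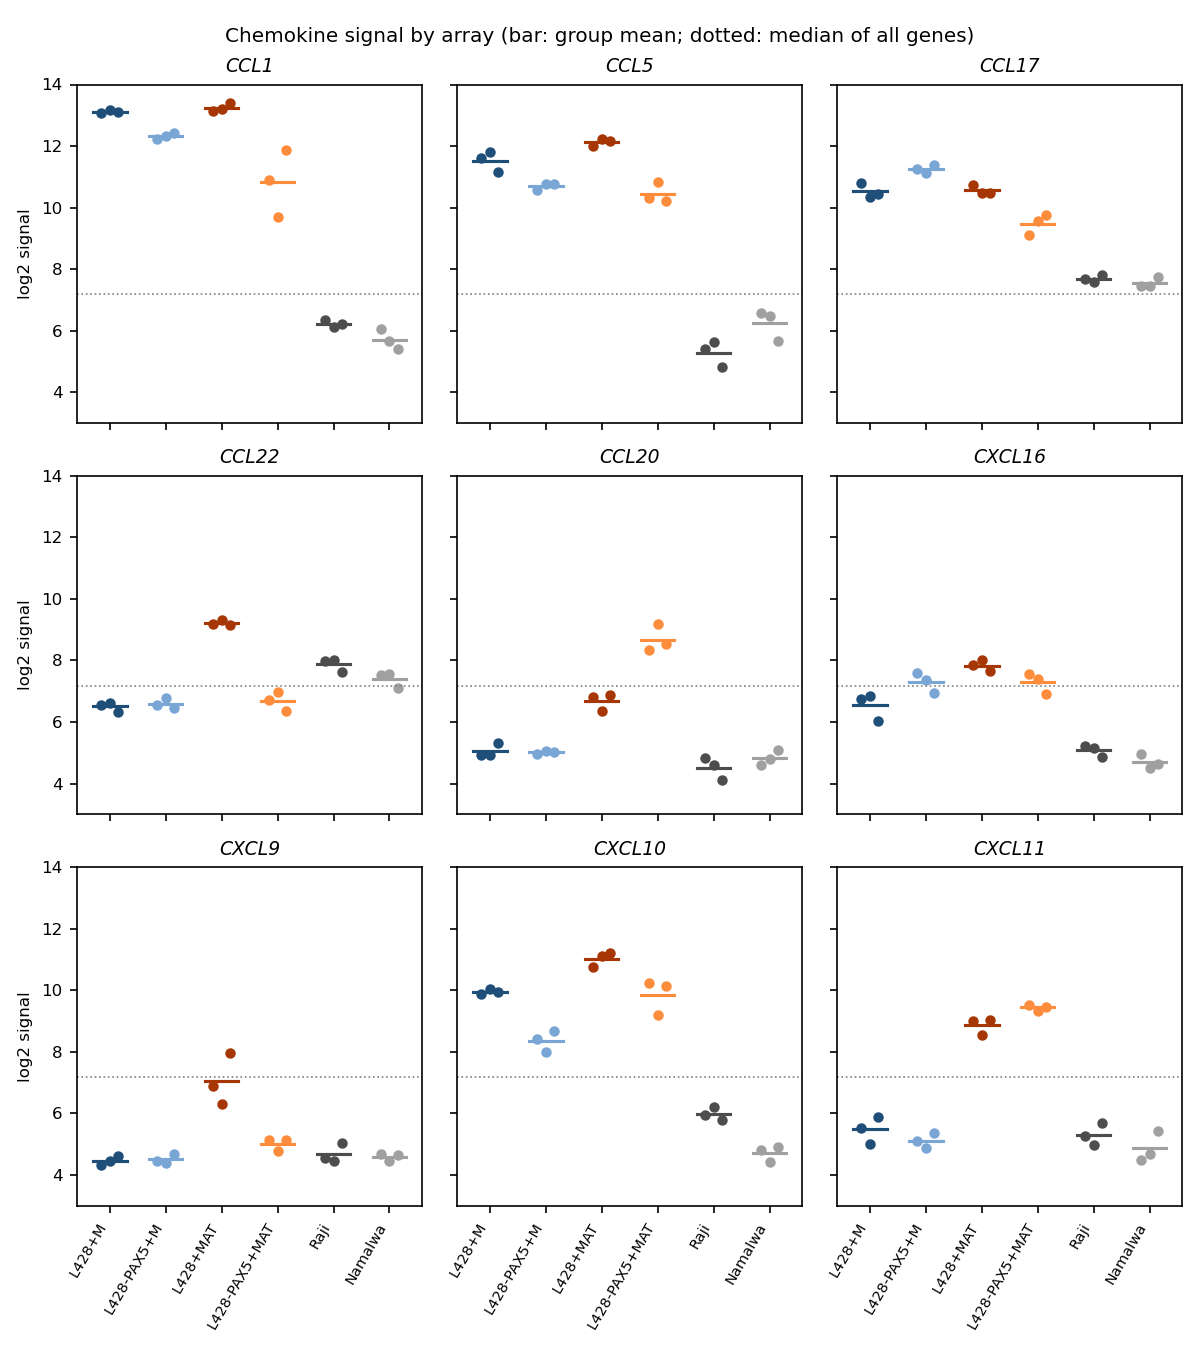
Log2 signal of the 9 chemokines (vertical axes) in 6 groups of 3 arrays (horizontal axes). Points are arrays, bars are group means and the dotted line is the median over all genes and arrays, 7.18. CCL1 lies between 9.71 and 13.4 on all L428 arrays and at or under 6.34 in the Burkitt lines, and CXCL11 rises above 8.5 in both drug-treated groups.

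In the absence of drugs, 4 of the 9 differed between L428-PAX5+M and L428+M. CCL17 and CXCL16 were higher, where 9.72% of all genes were, and CCL5 and CXCL10 lower, where 6.55% were. The median over the 9 was -0.03, as it was over all genes. With drugs in both lines, L428-PAX5+MAT against L428+MAT, 6 chemokines were lower (CCL1, CCL5, CCL17, CCL22, CXCL9 and CXCL10), where 17.7% of all genes were, and CCL20 was higher, where 14.3% were. The median was -1.17 over the 9 and 0 over all genes. With the replicate number as a block, which the arrays of the L428 groups bear out, CXCL11 joined the higher ones, so that 2 rather than 1 were called, and CXCL16 the lower ones.

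The CCR4 ligands CCL17 and CCL22 changed differently with the drugs: CCL17 fell with drugs in L428-PAX5, and CCL22 rose with them in L428. CCL17 read 10.81, 10.35 and 10.44 in L428+M, against 11.26, 11.12 and 11.38 in L428-PAX5+M. All 3 arrays of the PAX5 line were above all 3 of L428, a rise of 1.65-fold (0.72 ± 0.17, adjusted p = 0.00493). With drugs, CCL17 was 10.74, 10.49 and 10.47 in L428+MAT, within the range of L428+M (0.03 ± 0.17, adjusted p = 0.961, 95% interval from -0.32 to 0.39). It was 9.12, 9.56 and 9.77 in L428-PAX5+MAT. That group lay below every other L428 array. CCL17 fell by 1.78 ± 0.17 with drugs in L428-PAX5, 3.42-fold (adjusted p = 3.61e-07), and the drug effects of the lines differed by -1.81 ± 0.24 (adjusted p = 8.74e-05). In Raji it was 7.68, 7.57 and 7.82 and in Namalwa 7.45, 7.44 and 7.75, so that the order of means ran from L428-PAX5+M over L428+MAT, L428+M and L428-PAX5+MAT to the Burkitt lines, with overlap between L428+MAT and L428+M and between Raji and Namalwa.

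CCL22 answered the drugs in the parental line. It read 6.56, 6.63 and 6.33 in L428+M, against 9.18, 9.3 and 9.14 in L428+MAT, a rise of 6.49-fold (2.70 ± 0.17, adjusted p = 7.87e-09) that ranked 27 among the rises of 18417 genes. It read 6.56, 6.78 and 6.46 in L428-PAX5+M, against 6.72, 6.98 and 6.37 in L428-PAX5+MAT, which overlap with each other and with L428+M. The drug difference in L428-PAX5 was 0.09 ± 0.17 (adjusted p = 0.746, 95% interval from -0.26 to 0.44), and the drug effects of the lines differed by -2.61 ± 0.24 (adjusted p = 3.12e-06), which ranked 21 among the lowest of all genes. Under drugs, L428-PAX5 against L428, CCL22 was 5.72-fold lower in L428-PAX5 (-2.52 ± 0.17, adjusted p = 5.23e-09). CCL22 was the 1 member of the 9 called higher in Burkitt lines than in L428+M. Raji had 7.97, 8.02 and 7.63, 2.58-fold above L428+M (1.37 ± 0.17, adjusted p = 2.28e-06), and Namalwa 7.53, 7.56 and 7.11, 1.85-fold above it (0.89 ± 0.17, adjusted p = 0.000284). L428+MAT lay above both Burkitt lines with no overlap.

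CCL22 and CCL17 flank CX3CL1, the membrane-bound chemokine fractalkine, on chromosome 16, with no other coding gene between them in RefSeq (assembly GRCh38.p14). CX3CL1 read 10.65, 10.74 and 9.46 in L428+M, 9.84, 10.11 and 9.34 in L428-PAX5+M, 10.47, 10.71 and 10.2 in L428+MAT and 8.33, 7.8 and 8.21 in L428-PAX5+MAT. Like CCL17 it was lower with drugs in L428-PAX5 (-1.65 ± 0.28, adjusted p = 0.00014) and had a drug difference of 0.17 ± 0.28 in L428 (adjusted p = 0.85), while CCL22, at the other end of the cluster, rose in L428. The receptor CCR4 itself was measured at 11.94, 12.07 and 11.99 in L428+M and at 11.34, 11.17 and 11.49 in L428-PAX5+M. In L428-PAX5+MAT it read 9.89, 10.29 and 10.51. It fell with drugs in L428-PAX5 by 1.10 ± 0.23 (adjusted p = 0.00102), and its drug difference in L428 was 0.00 ± 0.23 (adjusted p = 0.999). In the Burkitt lines CCR4 was between 4.62 and 5.94.

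**Figure D2:**
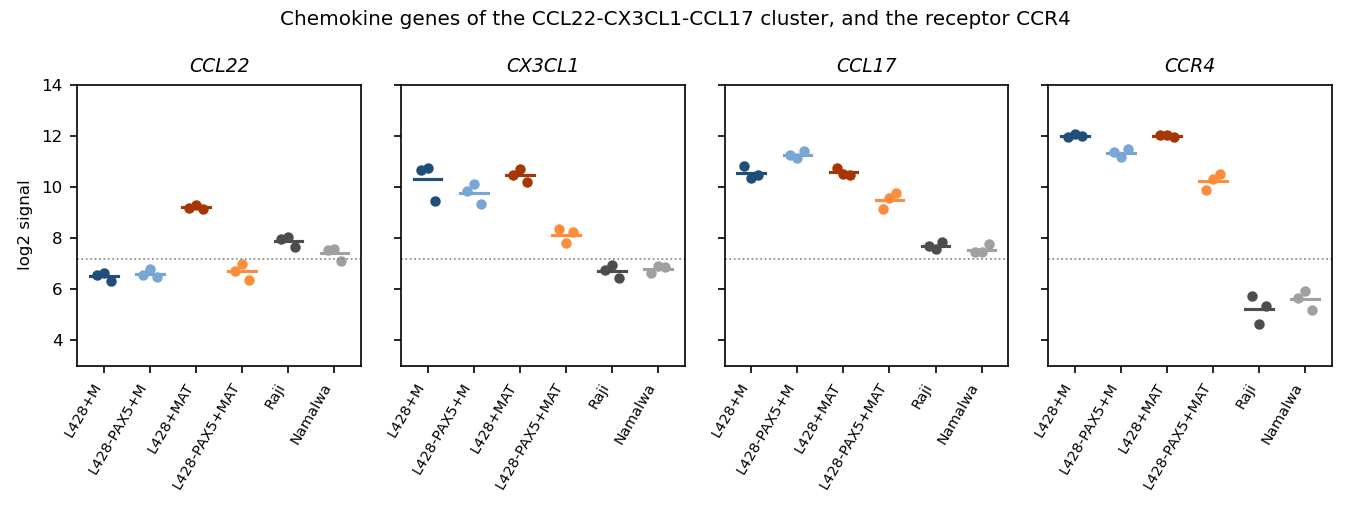
Log2 signal (vertical axis) of CCL22, CX3CL1 and CCL17, neighbours on chromosome 16, and of the receptor gene CCR4, on 3 arrays in each of 6 groups. Points are arrays, bars are group means and the dotted line is the median over all genes and arrays. CCL22 is highest in L428+MAT, and the other genes are lower in L428-PAX5+MAT than in the other L428 groups.

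CCL1 and CCL5 marked the Hodgkin line most sharply against the Burkitt lines. CCL1, the CCR8 ligand, read 13.06, 13.16 and 13.11 in L428+M, against 13.14, 13.19 and 13.4 in L428+MAT, which overlap. It read 12.23, 12.32 and 12.44 in L428-PAX5+M. These 3 arrays lay below all of L428+M (-0.78 ± 0.33, adjusted p = 0.125), and the difference was not called in the fit of all groups. That fit shares 1 spread among the groups, and CCL1 varied most in L428-PAX5+MAT, with 10.9, 9.71 and 11.88 (SD 1.09, against 0.05 in L428+M). With only the 2 groups in the fit the same difference was called (-0.78, adjusted p = 0.0041). The drugs lowered CCL1 in L428-PAX5 by 1.5 ± 0.33 (2.82-fold, adjusted p = 0.00155), with no overlap. Without L428-PAX5+MAT replicate 2, its lowest array, the difference was -0.94 (adjusted p = 0.00443). The drug effects of the lines differed by -1.63 ± 0.46 (adjusted p = 0.0221), a call lost with only the 4 groups of that comparison in the fit (-1.63, adjusted p = 0.054). That difference was -1.06 without the same array (adjusted p = 0.0269). Compared under drugs, CCL1 was 5.31-fold lower in L428-PAX5 (-2.41 ± 0.33, adjusted p = 1.56e-05). CCR8, the receptor of CCL1, was higher in the derived line without drugs, with means of 6.71 in L428-PAX5+M and 5.55 in L428+M (1.16 ± 0.17, adjusted p = 9.84e-05). The L428+M mean was near the level of the T and NK cell markers.

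CCL5, also called RANTES, read 11.61, 11.81 and 11.15 in L428+M, against 10.56, 10.77 and 10.76 in L428-PAX5+M, 1.78-fold lower with no overlap (-0.83 ± 0.25, adjusted p = 0.0252). Leaving out 1 array ended that call in 5 of 6 cases: L428+M replicate 1 (-0.79) or 2 (-0.68), or L428-PAX5+M replicate 1 (-0.76), 2 (-0.87) or 3 (-0.86). It read 11.99, 12.24 and 12.17 in L428+MAT, above every array of L428+M, with a difference that was not called (0.61 ± 0.25, adjusted p = 0.216). With the replicate number as a block the same difference was called (adjusted p = 0.0395). In L428-PAX5+MAT it read 10.3, 10.82 and 10.21 and overlapped with L428-PAX5+M (-0.25 ± 0.25, adjusted p = 0.498). Between the drug-treated groups CCL5 was 3.23-fold lower in L428-PAX5 (-1.69 ± 0.25, adjusted p = 3.07e-05). The difference of the drug effects was -0.86 ± 0.35 (adjusted p = 0.103), and 0.0179 was its adjusted p with the block.

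The CXCR3 ligands CXCL9, CXCL10 and CXCL11 lie close together on chromosome 4, with ART3 as the 1 other coding gene among them in RefSeq. They are shown with the 250 bases before each start site (RefSeq, GRCh38.p14), because the drugs raised all 3 in L428 and yet moved them apart in L428-PAX5. RefSeq promoter sequences were at hand for 6 of the 9 chemokines. Each line reads 5′ to 3′ on the gene's strand and ends just before the start site. The windows are chr4:76007510-76007759, chr4:76023498-76023747 and chr4:76036071-76036320, all on the minus strand. Capitals mark matches on either strand to GGG and CC with 5 bases between them (NF-kB-like), GAAA and GAAA with 2 between (like the interferon-stimulated response element, ISRE), TTC and GAA with 3 between (like the interferon-gamma activated site, GAS) or 4 between (STAT6-like), TGANTCA (AP-1-like) and TATAAA, and matches that overlap run together.
CXCL9: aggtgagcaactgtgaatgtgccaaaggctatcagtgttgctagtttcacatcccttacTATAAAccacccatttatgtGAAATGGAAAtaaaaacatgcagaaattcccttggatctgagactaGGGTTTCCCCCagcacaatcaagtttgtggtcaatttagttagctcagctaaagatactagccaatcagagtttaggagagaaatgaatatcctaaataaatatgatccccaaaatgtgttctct
CXCL10: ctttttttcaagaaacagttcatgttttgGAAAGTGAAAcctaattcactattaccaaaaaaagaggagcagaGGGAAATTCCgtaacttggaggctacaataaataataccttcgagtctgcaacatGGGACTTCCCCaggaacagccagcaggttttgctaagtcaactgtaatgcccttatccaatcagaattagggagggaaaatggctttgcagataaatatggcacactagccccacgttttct
CXCL11: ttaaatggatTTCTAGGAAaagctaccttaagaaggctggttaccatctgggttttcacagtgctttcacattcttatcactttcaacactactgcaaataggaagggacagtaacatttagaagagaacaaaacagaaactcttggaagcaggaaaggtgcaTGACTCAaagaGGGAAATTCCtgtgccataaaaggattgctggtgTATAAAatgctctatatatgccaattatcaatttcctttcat

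All 3 windows hold an NF-kB-like match, as do 53.7% of 27050 RefSeq promoter windows of this length. CXCL9 (GAAATGGAAA) and CXCL10 (GAAAGTGAAA) hold an ISRE-like match, present in 3.07% of windows, and CXCL11 has none in these letters. CXCL11 holds the GAS-like TTCTAGGAA (6.78% of windows) and the AP-1-like TGACTCA (6.62%). The dinucleotide CG, at which human DNA is methylated, occurs 3 times in the CXCL10 window and not at all in those of CXCL9 and CXCL11, where the median over all windows is 10. Matches describe these letters and show neither binding nor methylation, which were not measured.

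CXCL11 rose with drugs in both lines from a signal near that of the T and NK cell markers. It read 5.53, 5.02 and 5.89 in L428+M, against 8.99, 8.54 and 9.04 in L428+MAT, a fitted rise of 10.4-fold (3.38 ± 0.25, adjusted p = 7.24e-08). It read 5.09, 4.88 and 5.35 in L428-PAX5+M, against 9.53, 9.32 and 9.46 in L428-PAX5+MAT, a fitted rise of 20.1-fold (4.33 ± 0.25, adjusted p = 7.59e-10). All arrays of L428-PAX5+MAT were above all of L428+MAT (0.58 ± 0.25, adjusted p = 0.0886), and this was called with the replicate number as a block (adjusted p = 0.00632). The difference of the drug effects was 0.95 ± 0.35 (adjusted p = 0.0765) and was called with the block (adjusted p = 0.00448) and without L428+M replicate 2 (1.18, adjusted p = 0.0326).

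CXCL10 started high and was lower in the derived line. It read 9.87, 10.04 and 9.94 in L428+M, against 8.41, 7.98 and 8.67 in L428-PAX5+M, 3.03-fold lower (-1.60 ± 0.24, adjusted p = 8.69e-05). The drugs raised it to 10.76, 11.1 and 11.2 in L428+MAT, 2.1-fold (1.07 ± 0.24, adjusted p = 0.00973), which was no longer called when L428+MAT replicate 3 was left out (0.98, adjusted p = 0.0525). They raised it to 10.24, 9.19 and 10.14 in L428-PAX5+MAT, 2.83-fold (1.5 ± 0.24, adjusted p = 8.26e-05). The drug effects differed by 0.43 ± 0.33 (adjusted p = 0.452, 95% interval from -0.27 to 1.13). L428-PAX5+MAT overlapped with L428+M and stayed 2.25-fold below L428+MAT (-1.17 ± 0.24, adjusted p = 0.000775).

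CXCL9 was at or under the level of the T and NK cell markers everywhere but in L428+MAT. It read 4.31, 4.46 and 4.63 in L428+M, against 4.45, 4.4 and 4.67 in L428-PAX5+M. The drug-treated L428+MAT arrays read 6.88, 6.3 and 7.95, with a larger spread (SD 0.84). The fitted rise in L428 was 5.99-fold (2.58 ± 0.28, adjusted p = 7.09e-06). L428-PAX5+MAT read 5.12, 4.77 and 5.15, all above L428-PAX5+M by a difference that was not called (0.51 ± 0.28, adjusted p = 0.183) but was with array weights (0.66, adjusted p = 0.00587) and without the arrays numbered 3 (0.52, adjusted p = 0.0428). It was 4.09-fold below L428+MAT (-2.03 ± 0.28, adjusted p = 1.67e-05). The drug effects differed by -2.07 ± 0.39 (adjusted p = 0.00168).

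Most interferon-stimulated genes had a lower drug effect in L428-PAX5 than in L428. Of 21 measured members of that list, 17 were higher with drugs in L428, with a median difference of 1.49, and 4.21% of all genes were. MX1, an antiviral GTPase, rose by 2.59 ± 0.21 (adjusted p = 1.61e-07), the guanylate-binding protein GBP2 by 2.58 ± 0.31 (adjusted p = 2.72e-05) and IFI27 by 2.37 ± 0.20 (adjusted p = 3.55e-07). In L428-PAX5 the drugs raised 5 of the 21 (14.2% of all genes) and lowered 9 (19.4%), with a median of -0.55 against -0.04 over all genes. GBP2 (3.57 ± 0.31), GBP5 (1.78 ± 0.20) and OASL (1.46 ± 0.17) rose there, as CXCL10 and CXCL11 did, while MX1 (-0.72 ± 0.21), OAS2 (-1.88 ± 0.20), MX2 (-1.46 ± 0.16) and IFI44L (-2.25 ± 0.34) fell. The test of the difference of the drug effects called 15 of the 21 lower in L428-PAX5, against 10.6% of all genes, and none higher (2 at an unadjusted p under 0.05), with GBP2 at 0.99 ± 0.45 (adjusted p = 0.147), GBP5 at 0.45 ± 0.29 (adjusted p = 0.335) and OASL at 0.56 ± 0.25 (adjusted p = 0.136). CXCL9 was called lower in that test, and CXCL10 and CXCL11 were not called.

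**Figure D3:**
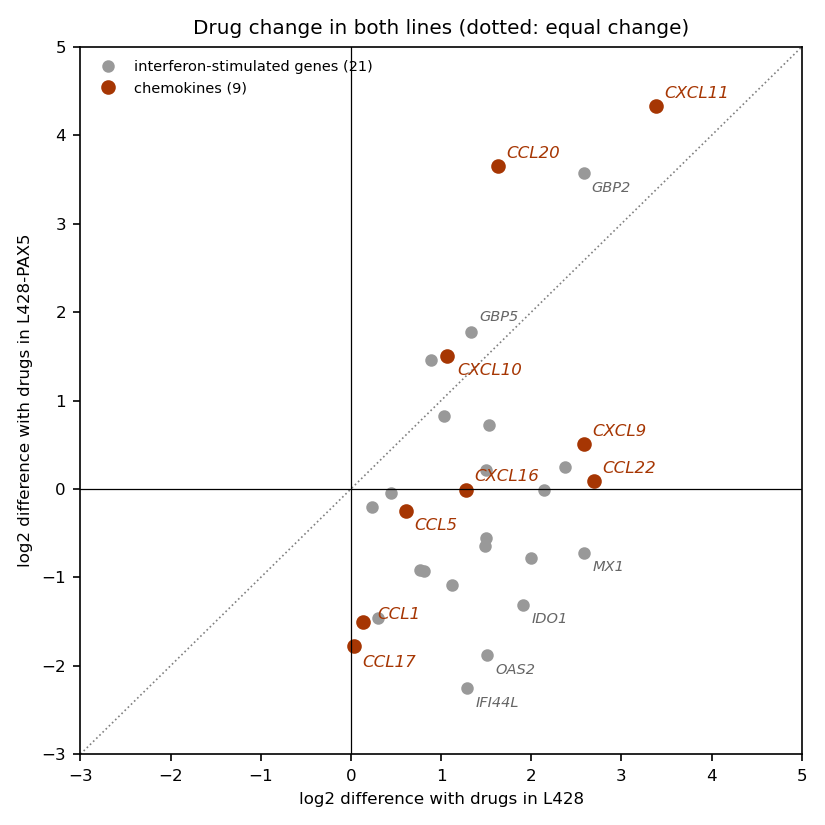
Log2 difference with 5-aza-dC and TSA in L428 (horizontal axis) and in L428-PAX5 (vertical axis), for the 9 chemokines and 21 interferon-stimulated genes, each point from 3 arrays per group. The dotted line marks equal change. CXCL11, CCL20, CXCL10, GBP2 and GBP5 lie above it, and CXCL9, CCL22 and CXCL16 lie between -0.01 and 0.51 on the vertical axis with differences of 2.58, 2.70 and 1.28 on the horizontal axis.

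Interferon-gamma, encoded by IFNG and the classical inducer of the CXCR3 ligands, was dim but called higher with drugs in both lines (1.2 ± 0.32 in L428, adjusted p = 0.0354, and 1.05 ± 0.32 in L428-PAX5, adjusted p = 0.0164). IRF1, a transcription factor of the interferon-gamma response, read 9.36, 9.42 and 9.32 in L428+M, against 11.26, 11.08 and 10.93 in L428-PAX5+M, higher in the group in which CXCL10 was lower (1.72 ± 0.15, adjusted p = 1.64e-07). The drugs moved IRF1 by 0.74 ± 0.15 in L428 (adjusted p = 0.00378) and by -0.93 ± 0.15 in L428-PAX5 (adjusted p = 8.47e-05). IRF9, part of the factor that binds interferon-stimulated response elements, was lower in L428-PAX5+M than in the parental L428+M (-1.12 ± 0.16, adjusted p = 4.96e-05) and rose with drugs in L428 (1.10 ± 0.16, adjusted p = 0.000155). RIGI, a sensor of double-stranded RNA, rose in both lines (1.86 ± 0.19 and 1.59 ± 0.19). Other sensors of nucleic acids did not follow it in L428-PAX5. There the mean of IFIH1 went from 10.66 without drugs to 9.28 with them, and that of CGAS from 10.75 to 9.63. Of the 20 measured genes of the interferon arm, the drugs raised 5 in L428 (4.21% of all genes). In L428-PAX5 they raised 4 (14.2%) and lowered 8 (19.4%).

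CCL20, the CCR6 ligand, rose with drugs in both lines, and more in L428-PAX5. It read 4.93, 4.92 and 5.31 in L428+M, against 4.97, 5.06 and 5.02 in L428-PAX5+M, which overlap (-0.03 ± 0.22, adjusted p = 0.953). It read 6.8, 6.36 and 6.87 in L428+MAT, a fitted rise of 3.09-fold (1.63 ± 0.22, adjusted p = 7.63e-05). It read 8.33, 9.17 and 8.52 in L428-PAX5+MAT, a fitted rise of 12.6-fold (3.65 ± 0.22, adjusted p = 1.26e-09), both from signals near the level of the T and NK cell markers. Each array of that group was above each of L428+MAT, 3.98-fold on average (1.99 ± 0.22, adjusted p = 1.35e-06), and the drug effects differed by 2.03 ± 0.31 (adjusted p = 0.000295).

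The promoters of CCL20 and CCL22 are shown because the drugs raised both genes in L428 and, of the 2, CCL20 alone was called higher in L428-PAX5. The windows are chr2:227813592-227813841 and chr16:57358533-57358782, both on the plus strand of GRCh38.p14, with capitals as above.
CCL20: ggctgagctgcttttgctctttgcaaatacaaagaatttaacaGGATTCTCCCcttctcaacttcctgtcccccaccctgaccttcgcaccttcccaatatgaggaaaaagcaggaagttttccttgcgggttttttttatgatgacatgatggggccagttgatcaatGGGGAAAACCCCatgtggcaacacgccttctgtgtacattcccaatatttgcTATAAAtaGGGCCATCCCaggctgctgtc
CCL22: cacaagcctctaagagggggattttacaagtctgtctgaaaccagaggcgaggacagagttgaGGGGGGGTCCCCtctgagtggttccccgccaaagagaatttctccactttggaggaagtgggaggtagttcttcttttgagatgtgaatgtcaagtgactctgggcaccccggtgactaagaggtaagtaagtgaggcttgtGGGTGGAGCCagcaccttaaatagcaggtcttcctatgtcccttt

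Each window holds more than 1 NF-kB-like match, of which those at GGGGAAAACC in CCL20 and at GGGGGGGTCC in CCL22 overlap with others, and CCL20 has TATAAA in the 29 bases before its start (11.2% of windows hold it anywhere). Each holds 3 CG dinucleotides, and 23.7% of windows hold fewer. Neither holds an ISRE-like, GAS-like, STAT6-like or AP-1-like match in these letters.

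CXCL16, the membrane-anchored CXCR6 ligand, was lowest among the L428 groups in L428+M. It read 6.76, 6.86 and 6.03 in L428+M, 7.58, 7.37 and 6.93 in L428-PAX5+M, 7.84, 8.01 and 7.65 in L428+MAT and 7.55, 7.41 and 6.9 in L428-PAX5+MAT. Replicate 3 was the lowest array of each of these groups. The difference without drugs, 1.67-fold, was called (0.74 ± 0.23, adjusted p = 0.0295) with no overlap. It was not called without L428+M replicate 3 (0.48), without L428-PAX5+M replicate 1 (0.60) or 2 (0.70), with array medians subtracted (0.73, adjusted p = 0.0505) or with only the 2 groups in the fit (0.74, adjusted p = 0.0822). The drugs raised CXCL16 2.43-fold in L428 (1.28 ± 0.23, adjusted p = 0.00137), and in L428-PAX5 the difference was -0.01 ± 0.23 (adjusted p = 0.987, 95% interval from -0.48 to 0.47). The drug effects differed by -1.29 ± 0.32 (adjusted p = 0.0102). With drugs in both lines CXCL16 differed by -0.55 ± 0.23 in L428-PAX5, which was not called (adjusted p = 0.0762) and was called with the replicate block (adjusted p = 0.00535).

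**Figure D4:**
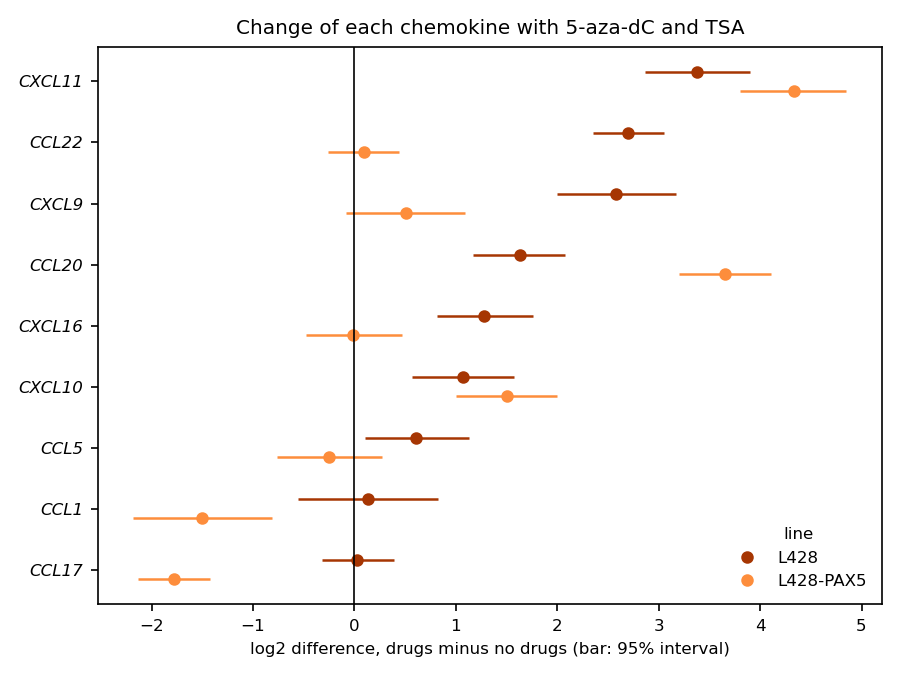
Log2 difference between drug-treated and untreated arrays (horizontal axis, drugs minus no drugs) for each of the 9 chemokines in L428 and L428-PAX5, with 95% intervals from limma and 3 arrays per group. CCL22, CXCL9 and CXCL16 changed in L428 and have intervals across 0 in L428-PAX5, CCL1 and CCL17 show the reverse with a fall, and CXCL11, CXCL10 and CCL20 rose in both.

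Against the Burkitt lines, the same 5 chemokines were higher in L428+M than in Raji and than in Namalwa: CCL1, CCL5, CCL17, CXCL10 and CXCL16. Among all genes 15.6% were called lower in Raji and 15.5% in Namalwa, and for the 1 higher member, CCL22, the shares of genes called higher were 15.7% and 18.4%. CCL1 read 6.34, 6.11 and 6.23 in Raji and 6.04, 5.65 and 5.42 in Namalwa, 118-fold (-6.88 ± 0.33, adjusted p = 3.08e-12) and a fitted 170-fold (-7.41 ± 0.33, adjusted p = 1.07e-12) below L428+M. These ranked 7 and 5 among the lowest differences of all genes. CCL5 read 5.39, 5.64 and 4.83 in Raji and 6.58, 6.48 and 5.66 in Namalwa, a fitted 75.2-fold (-6.23 ± 0.25) and 39-fold (-5.29 ± 0.25) below. CXCL10 was 15.7-fold (-3.97 ± 0.24) and a fitted 37.9-fold (-5.24 ± 0.24) lower, CCL17 7.18-fold (-2.84 ± 0.17) and 7.93-fold (-2.99 ± 0.17), and CXCL16 a fitted 2.78-fold (-1.48 ± 0.23) and 3.6-fold (-1.85 ± 0.23). Since both comparisons share the L428+M arrays, they are not independent of one another. CCL20, CXCL9 and CXCL11, dim in L428+M, were not called in either line, with adjusted p-values from 0.067 for CXCL11 in Namalwa to 0.819 for CXCL9 in Namalwa, and 2 of these differences were called when 1 array was left out. CCL20 was called lower in Raji without Raji replicate 1 (-0.69, adjusted p = 0.0363), and CXCL11 lower in Namalwa without L428+M replicate 2 (-0.84, adjusted p = 0.0176) or Namalwa replicate 3 (-0.89, adjusted p = 0.00789).

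Raji and Namalwa differed in 2 of the 9. CXCL10 read 5.94, 6.22 and 5.78 in Raji and 4.8, 4.43 and 4.9 in Namalwa, 2.41-fold higher in Raji (1.27 ± 0.24, adjusted p = 0.000508, where 7.74% of all genes were called higher). CCL5 was 1.93-fold lower in Raji (-0.95 ± 0.25, adjusted p = 0.00859, where 11.5% were called lower), and the groups do not overlap. Without Namalwa replicate 1 (-0.78) or Raji replicate 3 (-0.72) it was not called. CCL22, not called with all arrays (0.48 ± 0.17, adjusted p = 0.0565), was called without Raji replicate 3 (0.60, adjusted p = 0.0292), and CXCL11 (0.45 ± 0.25, adjusted p = 0.274) without Namalwa replicate 3 (0.73, adjusted p = 0.0495). With the replicate number as a block CCL22 (adjusted p = 0.0028) and CXCL11 (adjusted p = 0.0444) were also called higher in Raji, which made 3 rather than 1.

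There were 30 measured chemokines outside the 9. With drugs in L428, where 4.21% of all genes were called higher, 2 of the 30 were, CCL2, which attracts monocytes (1.51 ± 0.32, adjusted p = 0.00761), and CCL28 (1.40 ± 0.17, adjusted p = 2.07e-05), none was lower (1 at an unadjusted p under 0.05), and the median of the 30 was -0.04. In L428-PAX5 CCL2 rose by 2.29 ± 0.32 (adjusted p = 2.79e-05) and CCL28 by 0.48 ± 0.17 (adjusted p = 0.0337), where 14.2% of all genes were called higher. CX3CL1, described above, was the 1 of the 30 called lower there, where 19.4% of all genes were. The CCL28 means without drugs, 5.31 in L428+M and 5.52 in L428-PAX5+M, were near the level of the T and NK cell markers. Between L428-PAX5+M and L428+M limma called none of the 30 (1 higher and 1 lower at an unadjusted p under 0.05).

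Among 9 measured receptors of these ligands, CXCR3 read 8.09, 8.17 and 8.28 in L428+MAT, against 6.93, 6.8 and 7.04 in L428-PAX5+MAT. With drugs in both lines it was lower in L428-PAX5 (-1.26 ± 0.12, adjusted p = 2.42e-07), as CCR4 was (-1.77 ± 0.23, adjusted p = 9.64e-06). They were the 2 of 9 receptors called lower, where 17.7% of all genes were. CCR8 was 1 of 2 called higher (0.55 ± 0.17, adjusted p = 0.0203), where 14.3% were. Both counts lay near the shares over all genes. CCR6 and CXCR6, the receptors of CCL20 and CXCL16, lay between 4.12 and 5.43 on all arrays and were called in none of the 8 comparisons. ACKR3, an atypical chemokine receptor, was higher in Raji than in L428+M (1.75 ± 0.18, adjusted p = 1.8e-07). DPP4, a peptidase that trims CCL5, CCL22 and the CXCR3 ligands, was higher in L428-PAX5+M than in the parental L428+M (1.29 ± 0.24, adjusted p = 0.00074). It was lower in Raji than in L428+M (-2.62 ± 0.24, adjusted p = 3.46e-08). Namalwa was similarly low, with a mean of 4.6 against 4.7 in Raji and 7.33 in L428+M. The carboxypeptidase CPM rose with drugs in L428-PAX5 (3.09 ± 0.22, adjusted p = 1.67e-08).

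Genes of signalling arms known to act on chemokine genes were also read. In L428-PAX5 the drugs lowered 5 of 10 genes of the STAT6 arm, where 19.4% of all genes were called lower, and raised 1, where 14.2% were called higher. The test of the difference of the drug effects called 6 of the 10 lower in L428-PAX5 (10.6% of all genes) and 1 higher (5.64%). STAT6 itself went from 10.66, 10.73 and 10.32 to 8.95, 8.69 and 8.99 (-1.70 ± 0.18, adjusted p = 1.45e-06), the receptor chain IL13RA1 fell by 1.41 ± 0.21 (adjusted p = 3.72e-05) and IL4R fell by 1.19 ± 0.15 (adjusted p = 1.1e-05). In L428 the drugs raised 1 of the 10, FCER2 (1.60 ± 0.18, adjusted p = 1.36e-05), and lowered none by limma or at an unadjusted p under 0.05. Of 23 measured genes of the NF-kB and AP-1 arm, the drugs lowered 8 (19.4% of all genes) and raised 1 (14.2%) in L428-PAX5. The difference of the drug effects was called lower there for 9 of the 23 (10.6%) and higher for 1 (5.64%). In L428 the drugs raised 3 of the 23 (4.21% of all genes) and lowered none by limma or at an unadjusted p under 0.05. BATF3, an AP-1 family factor of Hodgkin cells, fell by 1.65 ± 0.19 in L428-PAX5 (adjusted p = 3.37e-06), where CCL17 and CCL1 fell. The cytokine LTA fell by 2.23 ± 0.18 there (adjusted p = 5.88e-08). FOS, also of this arm, was the 1 raised in L428-PAX5, from a mean of 6.6 without drugs to 8.78 with them. TNFRSF8 fell by 1.23 ± 0.21 there (adjusted p = 0.000138), 1 of 3 called lower among 6 Hodgkin cell markers (19.4% of all genes). CSF1R was the 1 called higher (14.2% of all genes), with means of 9.13 in L428-PAX5+M and 9.84 in L428-PAX5+MAT. The part of these genes in the chemokine changes was not tested.

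Among 7426 genes whose group means span at least 1 log2 unit, those with the highest Pearson correlation to CCL17 were BMPR1B (r = 0.988), BATF3 (0.985) and LMO3 (0.984). For CCL1 they were RUNX2, CDC42BPA and CFI (0.995 each), and for CCL5 GATA3 (0.991), JUN (0.986) and CCR4 (0.984). CXCL10 had RAB11FIP1 (0.986), ABCB1 (0.981) and KSR1 (0.976), and CXCL16 had CTNS, CD68 and TJP1 (0.959 each). CXCL11 was closest to the testis gene BRDT (0.98), TENM1 (0.979) and TKTL1 (0.97), and CCL20 to CGREF1 (0.987), RFPL4A (0.979) and RGL1 (0.979). CXCL9 had MFAP5 (0.933), STPG4 (0.932) and SULF1 (0.92), and CCL22 had the lowest leading values, with the interferon-induced IFITM3 (0.872), STAG3 (0.862) and ADAMDEC1 (0.834). Among the 9 themselves CCL1 and CCL5 (r = 0.965), CCL1 and CCL17 (0.95) and CCL1 and CXCL10 (0.926) were most alike, CCL20 and CXCL11 had r = 0.921, and CCL22 and CCL17, the ligands of the same receptor, had r = -0.158. The arrays share 6 groups and 4 lines, so that these values describe group patterns and carry no test.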

How the data were processed

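Biotin-labelled RNA of 18 samples was measured on Affymetrix whole-transcript arrays. The deposited values are log2 expression per probe set, made by the authors with RMA and Partek per the submitters' processing notes; their versions are not given in the sources used here. Groups and replicate numbers come from the labels; where 3 titles read L425-PAX5, the cell line field (L428-PAX5) decided.

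Of 33297 probe sets, 19460 carry exactly 1 gene symbol in the platform annotation, 1754 carry several and 12083 have no symbol or are not listed. Some genes are not reported here. Of the former, 19429 matched RefSeq gene identifiers (GRCh38.p14). The brightest probe set per gene left 18417 genes. limma 3.58.1 (lmFit, eBayes) in R 4.3.3 fitted 1 mean per group over 18 arrays, with 12 residual and 6.1 prior degrees of freedom, two-sided tests and Benjamini-Hochberg adjustment. It was tested on simulated data. Figures used Python 3.11.15 and matplotlib 3.10.9. Same-numbered arrays of the L428 groups deviated together (r from 0.273 to 0.655 over genes), as did those of Raji and Namalwa (from 0.325). Between L428+M and the Burkitt lines this was uneven, from -0.014 to 0.5 with Namalwa and from 0.055 to 0.402 with Raji. The highest value belonged to the arrays numbered 3 in both cases. Alternatives were array centring, a replicate block, fewer groups, a trended robust prior, mean probe sets, a filter on dim genes, array weights and leaving out arrays. Beside the 9, the text names up to 3 genes higher and 3 lower per list and comparison (adjusted p under 0.05, at least 2-fold), a few line markers and the 3 most alike genes. CX3CL1, CCR4, CCR8, CXCR3, IRF1, CCR6, CXCR6, IRF9, STAT6, GBP5, OASL, RIGI and CCL28 were in part given values outside that rule, chosen after their values were seen. The members and lists were chosen with earlier results of these data known. The number of arrays limits the precision.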

Additional observations from a re-analysis of the deposited data

Results flagged for a closer look

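For 6 chemokines the drug effect differed between L428-PAX5 and L428 by limma's test of the difference itself (L428-PAX5 minus L428, log2). CCL20 had the larger effect in L428-PAX5 (2.03, adjusted p = 0.000295). The effect was lower there for CCL22 (-2.61, adjusted p = 3.12e-06), CXCL9 (-2.07, adjusted p = 0.00168), CCL17 (-1.81, adjusted p = 8.74e-05), CCL1 (-1.63, adjusted p = 0.0221) and CXCL16 (-1.29, adjusted p = 0.0102). With the replicate number as a block, CCL5 (-0.86, adjusted p = 0.0179) and CXCL11 (0.95, adjusted p = 0.00448) were called too. With only the groups of that comparison in the fit, CCL1 was not called (-1.63, adjusted p = 0.054). In each group the direction rests on 3 arrays, and groups of 3 were not screened for single outlying arrays.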

How the results depend on the processing

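Of 72 chemokine results, 42 were called. Of these, 40 kept direction and call under every other setting listed in the methods that keeps all arrays and in which they were tested (CXCL9, called in 3 comparisons, was not tested with dim genes left out), and 37 also when any 1 array was left out. The count of chemokines called higher between L428-PAX5+M and L428+M was 1 with array medians subtracted or with only the groups compared. With drugs in both lines it was 2 with the replicate block, only the groups compared, array weights, or without the arrays numbered 3. For the difference of the drug effects it was 2 with the replicate block or without the arrays numbered 3, and 3 with array weights. For Raji against Namalwa it was 3 with the replicate block, 2 with dim genes left out or without the arrays numbered 3, and 4 with array weights. The setting without the arrays numbered 3 was chosen after seeing the data, and the estimation of array weights stopped before its tolerance was reached. Beyond the calls given with the results, the block called CXCL11 lower in Namalwa than in L428+M and changed no other call of the 9. Between those groups mainly the arrays numbered 3 deviated together (r = 0.5, against 0.151 and -0.014 for numbers 1 and 2).

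Leaving out 1 array gave 1 to 2 chemokines higher and 1 to 2 lower between L428-PAX5+M and L428+M, 1 to 2 higher for the difference of the drug effects, and 1 to 2 higher and 0 to 1 lower for Raji against Namalwa. The signs that turned belong to differences near 0 that were not called. Without drugs, CCL20 was 0.04 with array weights and 0.09 without the arrays numbered 3, and ranged from -0.1 to 0.09 with 1 array left out, as CXCL9 did from -0.04 to 0.12. With drugs in L428, CCL17 was 0 with array medians subtracted and -0.01 with array weights, and ranged from -0.06 to 0.17 with 1 array left out. With drugs in L428-PAX5, CXCL16 was 0.15 with array weights and 0 without the arrays numbered 3, and ranged from -0.19 to 0.18 with 1 array left out, as CCL22 did from -0.05 to 0.25. CXCL11 ranged from -0.4 to 0.04 between Raji and L428+M. Between Raji and Namalwa, CCL20 was 0.02 and CXCL9 -0.05 without the arrays numbered 3, and CXCL9 ranged from -0.09 to 0.22 with 1 array left out. The cause was not tested.

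Over all genes, the block moved the count called lower from 1206 to 1818 without drugs and from 117 to 436 with drugs in L428, and for the difference of the drug effects from 1039 to 1717 higher and from 1951 to 3013 lower. Array weights gave 1569 higher and 982 lower with drugs in L428, 4392 higher with drugs in L428-PAX5, 5732 higher and 5444 lower with drugs in both lines, 2682 and 3283 for the difference of the drug effects, and 2529 and 3218 for Raji against Namalwa. With drugs in L428, 38 were lower with only the groups compared, 43 and 59 without L428+M replicate 1 and 2, 61 and 45 without L428+MAT replicate 2 and 3, and 248 without the arrays numbered 3, a setting that also gave 1655 higher for the difference of the drug effects. Each chemokine has 1 probe set, so that averaging probe sets leaves their values as they are.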
